A study of Rattus norvegicus with 9 samples.

Results

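In left ventricles of rats, 5 of 87 measured array rows (A073, R058, 14R, R546 and A014) were listed at 2-fold or more above untreated hearts after first-time heat acclimation and again in every later group of the same heat history. They were chosen from the measured values. A row was taken if its log2 ratio to the control was 1 or more after 2 d or after 1 mo of acclimation, and was also 1 or more after deacclimation, reacclimation and reacclimation followed by heat stress. All 5 rows, and no other row of the 87, met this rule. Their levels in those groups are therefore a description, and nothing is tested with them.

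Animals kept in the warmth acclimate over days to weeks, and in this adjustment the heart comes to work at a lower rate and stores of protective heat shock proteins are built up. The adjustment is lost after return to cooler surroundings, and a second stay in the warmth is known to restore it faster than it was first gained. A transcript that stays high after the warmth has ended would be one possible trace of the earlier exposure, which is the question the deacclimated and reacclimated groups address.

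The study compared 9 groups of rats, with 1 sample each. Untreated control rats and rats given heat stress without any acclimation were the groups with no stay in the warmth. For heat stress, rats were kept at 41 °C for 2 h and recovered at 24 °C for 1 h. Acclimated rats were kept at 34 °C for 2 d or for 1 mo, and each of these was also sampled after heat stress. Deacclimated rats lived at 24 °C for 1 mo after their 1 mo at 34 °C. Reacclimated rats were then put back at 34 °C for 2 d, and were sampled with and without heat stress. The labels give no strain, sex or age. RNA of individual left ventricles was combined into 3 pools per group, with 6 animals stated, and radioactively labelled for a Clontech array. The ventricle was sampled whole, so fewer cells of a type and less RNA per cell cannot be told apart.

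Each group has 1 deposited value per row, so there was no spread between replicates, no test was run, and neighbouring values cannot be told apart by their error. A first deposited table gives log2 ratios to the control, and a second gives intensities. The control column of the first table was taken as 0. It was listed away from 0 in 9 rows, none of them among the 5. None of the 87 array names could be paired with a gene through the files or the rat reference table, so the 5 rows are given by array name, without a gene, a known role, a sequence or a place in the genome. For the same reason the tissue could not be checked against marker genes. Median intensities over all rows ran from 1064 to 4962 among the groups, so intensities below are also compared after scaling each group to its median over the 59 rows above 0 in every group. Precision is limited by the number of arrays.

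Row A014 was high in unstressed rats after 1 mo of acclimation and later, and below the control when rats acclimated for the first time were heat-stressed. Its log2 ratio to the control was 0.69 after 2 d of acclimation, 1.31 after 1 mo, 1.76 after deacclimation and 1.74 after reacclimation. After heat stress it was 0.71 in rats that were not acclimated, -0.98 after 2 d of acclimation, -1.80 after 1 mo and 1.40 after reacclimation. A014 thus stood 2.47-fold above the control after 1 mo of acclimation, and 3.49-fold below it when such rats were heat-stressed. It was the only one of the 5 rows under 2-fold after 2 d of acclimation. The intensities of A014 were 1170 in the control, 1870 after 2 d of acclimation, 5689 after 1 mo, 8651 after deacclimation and 4973 after reacclimation. In heat-stressed rats they were 2516 without acclimation, 208.1 after 2 d of acclimation, 391.9 after 1 mo and 4930 after reacclimation. Both tables place A014 high in the deacclimated and both reacclimated groups, and lowest in the heat-stressed rats of both first-time acclimations.

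Row R546 was likewise high in the unstressed treated groups and lower in heat-stressed rats acclimated for the first time. Its log2 ratio was 1.33 after 2 d of acclimation, 1.31 after 1 mo, 1.95 after deacclimation and 1.98 after reacclimation, the last a 3.95-fold excess over the control. After heat stress it was -0.092 in rats that were not acclimated, 0.60 after 2 d of acclimation, -0.21 after 1 mo and 1.29 after reacclimation. The unstressed groups and the reacclimated, heat-stressed group were all high, and the other heat-stressed groups were all below 2-fold. The intensities of R546 were 1487 in the control, 11641 after 2 d of acclimation, 6443 after 1 mo, 8659 after deacclimation and 8786 after reacclimation. In heat-stressed rats they were 2627 without acclimation, 118.8 after 2 d of acclimation, 1043 after 1 mo and 6525 after reacclimation. By intensity R546 was between 4.33-fold (1 mo acclimated) and 7.83-fold (2 d acclimated) above the control in the unstressed treated groups.

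Row A073 differed from the others in its log2 ratio being above 2-fold in heat-stressed rats without acclimation and after 2 d of acclimation. Its log2 ratio was 1.04 after 2 d of acclimation, 1.09 after 1 mo, 1.84 after deacclimation and 1.78 after reacclimation. After heat stress it was 1.47 in rats that were not acclimated, 1.51 after 2 d of acclimation, 0.14 after 1 mo and 1.03 after reacclimation. A073 was thus at or above 2-fold in 7 of 8 treated groups, and the heat-stressed rats acclimated for 1 mo were the exception. Its intensities were 2055 in the control, 3530 after 2 d of acclimation, 2078 after 1 mo, 3224 after deacclimation and 3630 after reacclimation. In heat-stressed rats they were 2907 without acclimation, 1524 after 2 d of acclimation, 518.0 after 1 mo and 6848 after reacclimation. The low value after 1 mo of acclimation with heat stress therefore appears in both tables, whereas the excess after 1 mo of acclimation does not, at 1.01-fold by intensity. After 2 d of acclimation with heat stress the intensity was below the control (1524 against 2055). After scaling it was 0.28 above the control on the log2 scale.

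Row R058 had the highest log2 ratio of all 87 rows after 2 d of acclimation, at 1.82, and stood at 1.43 after 1 mo, 1.82 after deacclimation and 1.38 after reacclimation. After heat stress it was 0.88 in rats that were not acclimated, 0.36 after 2 d of acclimation, 0.56 after 1 mo and 1.08 after reacclimation. No ratio of R058 was below the control. Its intensities were 11502 in the control, 34777 after 2 d of acclimation, 10786 after 1 mo, 10331 after deacclimation and 8614 after reacclimation. In heat-stressed rats they were 5710 without acclimation, 1817 after 2 d of acclimation, 4838 after 1 mo and 9902 after reacclimation. By intensity only the 2 d acclimated group stood above the control (3.02-fold).

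Row 14R had a log2 ratio of 1.55 after 2 d of acclimation, 1.40 after 1 mo, 1.61 after deacclimation and 1.93 after reacclimation. After heat stress it was -2.89 in rats that were not acclimated, 0.39 after 2 d of acclimation, 0.48 after 1 mo and 1.32 after reacclimation. The value of -2.89 is 1 of 6 in the heat-stressed group, between -4.06 and -2.87, that lay apart from the next lowest row at -1.29. The intensities of 14R were 3947 in the control, 4224 after 2 d of acclimation, 2104 after 1 mo, 1830 after deacclimation and 1719 after reacclimation. In heat-stressed rats they were 2485 without acclimation, 32.3 after 2 d of acclimation, 1708 after 1 mo and 1944 after reacclimation. By intensity 14R was below the control in every group but the 2 d acclimated, and its lowest value was in a group where 14 rows had an intensity below 0.

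**Figure D1:**
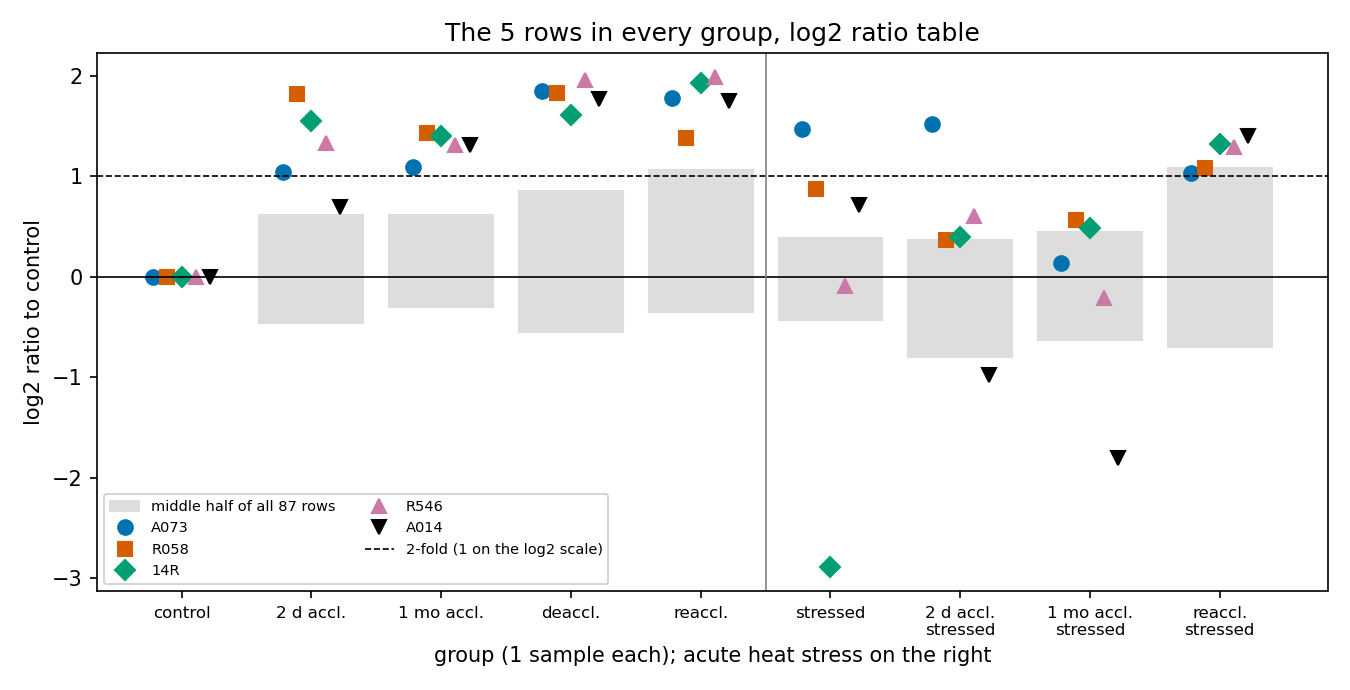
Log2 ratio to the control (vertical axis) of the 5 rows in the control, the 4 unstressed treated groups and the 4 heat-stressed groups (horizontal axis), 1 point per row and sample, with grey boxes from the lower to the upper quartile of all 87 rows and a dashed line at 2-fold. In the deacclimated group the 5 rows lie between 1.61 and 1.95, and in the heat-stressed, 1 mo acclimated group between -1.80 and 0.56.

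The 5 rows lay closer together in the groups that chose them than in the others. Their log2 ratios spanned 1.13 after 2 d of acclimation (0.69 to 1.82), where the rule let a row be low if it was high after 1 mo. Their other log2 ratios spanned 0.34 after 1 mo of acclimation (1.09 to 1.43), 0.34 after deacclimation (1.61 to 1.95), 0.60 after reacclimation (1.38 to 1.98) and 0.36 in reacclimated, heat-stressed rats (1.03 to 1.40). The rule sets a lower end of 1 in the later groups, which by itself narrows the span there. The narrower span is therefore no result about the 5 rows. No upper end is set, and the highest row of the table stood at 2.82 in the deacclimated and 2.85 in the reacclimated, heat-stressed group. In groups that the rule did not use the span was 4.36 in heat-stressed rats, 2.49 in 2 d acclimated, heat-stressed rats and 2.37 in 1 mo acclimated, heat-stressed rats. A single row made most of the first of these, since without 14R the other rows ran from -0.092 (R546) to 1.47 (A073).

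How far the rule narrows the table was counted step by step. At 2-fold or more above the control there were 11 of 87 rows after 2 d of acclimation (12.6%) and 10 after 1 mo (11.5%), with 6 rows in both lists and 15 in either. Of the 5 rows, 4 were in the first list and 5 in the second. Deacclimation had 18 rows at that level (20.7%), reacclimation 24 (27.6%) and reacclimation with heat stress 26 (29.9%), and these shares are the background of a list that was chosen by them. Of the 15 rows raised by acclimation 8 were also raised after deacclimation, and 5 of these after reacclimation, and the same 5 were above 2-fold with heat stress on top. All groups are set against the same control, so a low control value in a row raises all its ratios at once.

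Rows just inside and just outside the rule lay close to each other. A073 was nearest to the threshold, at 1.03 in reacclimated, heat-stressed rats, followed by R058 at 1.08 in the same group. The lowest value that counted for R546 was 1.29, for A014 it was 1.31 and for 14R it was 1.32. In all 13 rows missed the rule by 1 condition. Row 755R missed it in the reacclimated group (0.86), and R332 (0.86) and R198 (0.83) in the deacclimated group. Also in the deacclimated group R594 missed it (0.72), and in the reacclimated group 635R did (0.63). The other 8 rows (R570, R050, R158, R249, R208, A024, R516 and A022) were above 2-fold in all 3 later groups but not after acclimation, with their higher acclimated value between -0.30 (A022) and 0.63 (R570).

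Persistence was first described against the acclimated state itself, which uses no control value. After deacclimation A014 was higher than after 1 mo of acclimation by 0.46 on the log2 scale, R546 by 0.65, A073 by 0.76, R058 by 0.39 and 14R by 0.21. All 5 differences were above 0, where 49 of 87 rows were, and all 5 were below 2-fold. Thus 0 of the 5 rows were 2-fold lower after 1 mo back at 24 °C, where 8.05% of all rows were and 9.20% were 2-fold higher. The median of the 5 was 0.46, against 0.071 for all 87 rows. Both columns entered the choice of the rows. The 5 stood at 1.09 to 1.43 after 1 mo, so a 2-fold fall would have broken the rule. The 0 of 5 was thus fixed by the choice and is no result about persistence. The 5 other rows raised after 1 mo of acclimation had a median of -0.74, and 2 of them were at least 2-fold lower after deacclimation. The 8 rows raised only later had a median of 1.42 in this comparison, with 6 of 8 at least 2-fold higher. Both of these lists were also chosen by the acclimated and deacclimated values, and 4 of the 5 other rows were under 2-fold in the deacclimated group, so their medians are set in part by the choice.

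By scaled intensity the same step was near 0 for 3 of the 5 rows. The log2 difference was 0.17 for A014, -0.0125 for R546 and 0.19 for A073, and it was -0.50 for R058 and -0.64 for 14R. No row of the 5 was 2-fold lower or higher in this table, where 13.4% of the 82 rows that could be compared were lower and 18.3% higher.

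Returning the rats to 34 °C for 2 d left the 5 rows within 2-fold of their level after deacclimation. The log2 difference between reacclimated and deacclimated rats was -0.022 for A014, 0.027 for R546, -0.064 for A073, -0.44 for R058 and 0.32 for 14R. None of the 5 rows was 2-fold higher, where 13.8% of all rows were, and the median was -0.022 against 0.036 for all rows. Both columns entered the choice of the rows. The 5 stood at 1.61 to 1.95 after deacclimation, so a 2-fold fall would have broken the rule. A 2-fold rise would have passed the highest reacclimated value of any row (2.36). The 0 is therefore no result about the 5 rows. By scaled intensity the 5 differences ran from -0.55 (A014) to 0.42 (A073), again with no row at 2-fold, against 5.00% of 80 rows higher and 21.2% lower.

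A second stay of 2 d was then set beside the first. In reacclimated rats A014 was 2.08-fold above its level after 2 d of first-time acclimation (log2 difference 1.05), and its intensity was 4973 against 1870. It was the only one of the 5 rows at 2-fold, where 18.4% of all rows were higher, and with every group centred at its median it was below 2-fold (0.87). The rule admitted A014 at 0.69 after 2 d, through its 1 mo value, while the other 4 rows stood at 1.04 or more. That A014 stood out here is therefore set in part by the choice. The differences were 0.74 for A073, 0.65 for R546, 0.38 for 14R and -0.44 for R058. By scaled intensity R058 was at least 2-fold lower (-1.55) and A014 at least 2-fold higher (1.88). Of the 74 rows compared this way, 22 were at least 2-fold lower and 16 at least 2-fold higher. A 2-fold step in either direction was therefore common among all rows. After 1 mo of acclimation A014 was also above its 2 d level, by 0.62. Its 2 d level was the lowest of its unstressed treated groups, since the rule then required the others to be 1 or more. By scaled intensity A014 was higher after 1 mo than after 2 d by 2.26, with only 2 of 77 rows higher.

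Among the treated groups, 4 of the 5 rows had their lowest log2 ratio in heat-stressed rats acclimated for the first time. The rule held the later groups and at least 1 acclimated group at 1 or more, so this count was favoured by the choice. The share over all 87 rows was not counted. After 1 mo of acclimation A014 was 8.63-fold lower in stressed than in unstressed rats (log2 difference -3.11), the largest decrease of all 87 rows. R546 was 2.86-fold lower (-1.52), and A073 (-0.95), 14R (-0.92) and R058 (-0.87) lay just under 2-fold. Thus 2 of the 5 rows were at least 2-fold lower, where 19.5% of all rows were, and all 5 were below 0, where 48 of 87 rows were. The median of the 5 was -0.95, against -0.19 for all rows. The unstressed column entered the choice of the rows, and high values there widen the difference. The 5 other rows raised after 1 mo of acclimation, which share that feature, had a median of -0.58, with 2 of 5 at least 2-fold lower.

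The second table gave the same order at the low end. Scaled intensity was lower by 3.87 for A014 and by 2.64 for R546, the 2 lowest of all 87 rows, and the deposited intensities were 14.5-fold and 6.18-fold lower. The stressed intensity of A014 (391.9) lay near the lowest of its group (380.0). A073 had a log2 difference of -2.02, R058 of -1.17 and 14R of -0.31. By scaled intensity 4 of the 5 rows were therefore at least 2-fold lower, against 19.5% of all rows.

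After 2 d of acclimation the response was split. Heat stress left A014 3.18-fold lower (-1.67), R058 2.74-fold lower (-1.45) and 14R 2.23-fold lower (-1.16), while R546 was 1.66-fold lower (-0.73) and A073 was higher by 0.47. This made 3 of the 5 rows at least 2-fold lower, where 33.3% of all rows were, and the median was -1.16 against -0.39. With groups centred at their medians only A014 was 2-fold lower. The unstressed column entered the choice of the rows, and high values there widen the difference. The 7 other rows raised after 2 d of acclimation had a median of -0.94, with 3 of 7 at least 2-fold lower. The 4 of the 5 rows raised after 2 d had the same median of -0.94, with 2 of 4 at least 2-fold lower. By scaled intensity 4 of the 5 rows were at least 2-fold lower, against 31.8% of 66 rows, with R058 at -2.67, A014 at -1.58 and A073 at 0.38. The stressed intensities of 14R (32.3), R546 (118.8) and A014 (208.1) are small beside the lowest of that group (-487.8), where 14 rows were below 0, so how far they were lower is uncertain and no size is given for 14R and R546.

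In reacclimated rats the heat-stressed level of each of the 5 rows was nearer to the unstressed level than after 1 mo of acclimation, in both tables. A014 differed by -0.35, R058 by -0.30, 14R by -0.61, R546 by -0.69 and A073 by -0.75. All 5 were below 0, where 56 of 87 rows were, and none was 2-fold lower, where 10.3% of all rows were. Both columns entered the choice of the rows, which keeps the stressed value at 2-fold or more above the control. The 5 stood at 1.38 to 1.98 after reacclimation, so a 2-fold fall would have broken the rule. The 0 is therefore no result about the 5 rows. The smaller falls than after 1 mo in the log2 ratio table were set in large part by the choice. By scaled intensity none of the 5 was 2-fold lower either (9.88% of 81 rows were), and the differences ran from -0.79 (R546) to 0.55 (A073).

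Rats without acclimation, whose stressed group the rule did not use, showed no common response. A073 was 2.77-fold higher than in the control (1.47), R058 was at 0.88, A014 at 0.71 and R546 at -0.092, and 14R was listed at -2.89. With A073 higher and 14R lower, 1 of 5 rows passed 2-fold in each direction, where 5.75% of all rows were higher and 10.3% lower. In scaled intensity A014 was the only one at 2-fold (1.15, against 21.1% of 76 rows higher and 9.21% lower), A073 was at 0.54, R546 at 0.87, 14R at -0.62 and R058 at -0.97.

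**Figure D2:**
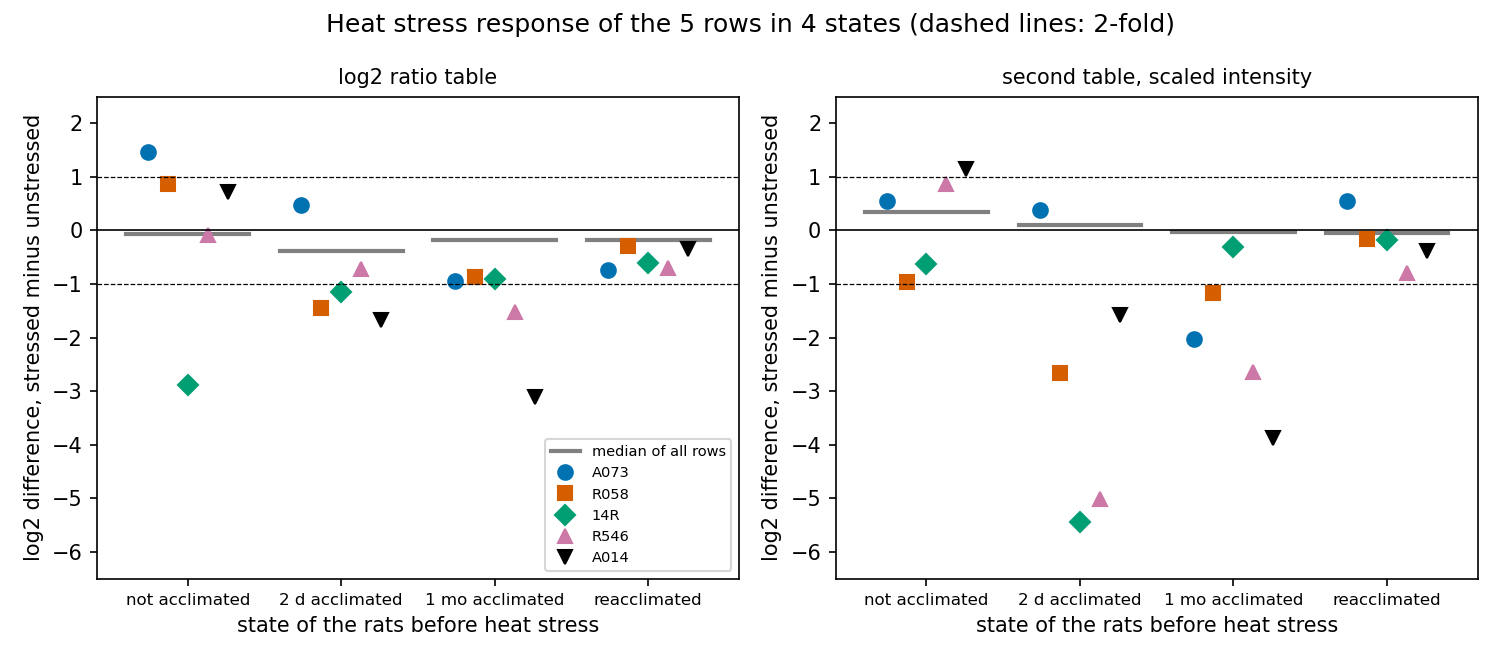
Log2 difference between heat-stressed and unstressed rats (vertical axis) for the 5 rows in 4 states of the rats, from not acclimated to reacclimated (horizontal axis), by the log2 ratio table (left) and by scaled intensity (right), 1 point per row and state, with grey bars for the median of all rows. A014 lies at -3.11 and -3.87 after 1 mo of acclimation and at -0.35 and -0.38 after reacclimation.

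The stressed groups were also compared with each other, which uses no control and no unstressed value. A014 was 9.18-fold higher in stressed reacclimated than in stressed 1 mo acclimated rats (3.20), the largest increase of all 87 rows, and its intensity was 4930 against 391.9. R546 was 2.82-fold higher (1.5), followed by A073 (0.90), 14R (0.83) and R058 (0.52). All 5 differences were above 0, where 53 of 87 rows were. Of the 5 rows 2 reached 2-fold, where 18.4% of all rows did. The median of the 5 was 0.90, against 0.26 for all rows. One of the 2 columns entered the choice of the rows. The 8 rows raised only later, chosen by that column too, had a median of 0.93, with 4 of 8 at least 2-fold higher. By scaled intensity A073 (3.19), A014 (3.12) and R546 (2.11) were at least 2-fold higher, where 10.3% of all rows were, and R058 was at 0.50 and 14R at -0.35.

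Against stressed 2 d acclimated rats, A014 was 5.19-fold higher in stressed reacclimated rats (2.38), with only 2 of the 87 rows higher. The differences were 0.93 for 14R, 0.72 for R058, 0.69 for R546 and -0.48 for A073. This made 1 of 5 rows at 2-fold, where 26.4% of all rows were, and the median of 0.72 lay near the 0.54 of all rows. By scaled intensity 14R, R546 and A014 were at least 2-fold higher, against 27.4% of 73 rows, but from the small stressed 2 d intensities given above, so that the size of these differences is uncertain. Between both stressed first-time groups, A073 was 2.60-fold lower after 1 mo than after 2 d of acclimation (-1.38, with only 1 of 87 rows lower, against 6.90% of rows at least 2-fold lower), and its scaled intensity was the lowest of 73 rows (-2.51). A014 (-0.82) and R546 (-0.81) were lower as well, and past 2-fold after centring (-1.09 and -1.08), while R058 (0.20) and 14R (0.092) were not lower.

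**Figure D3:**
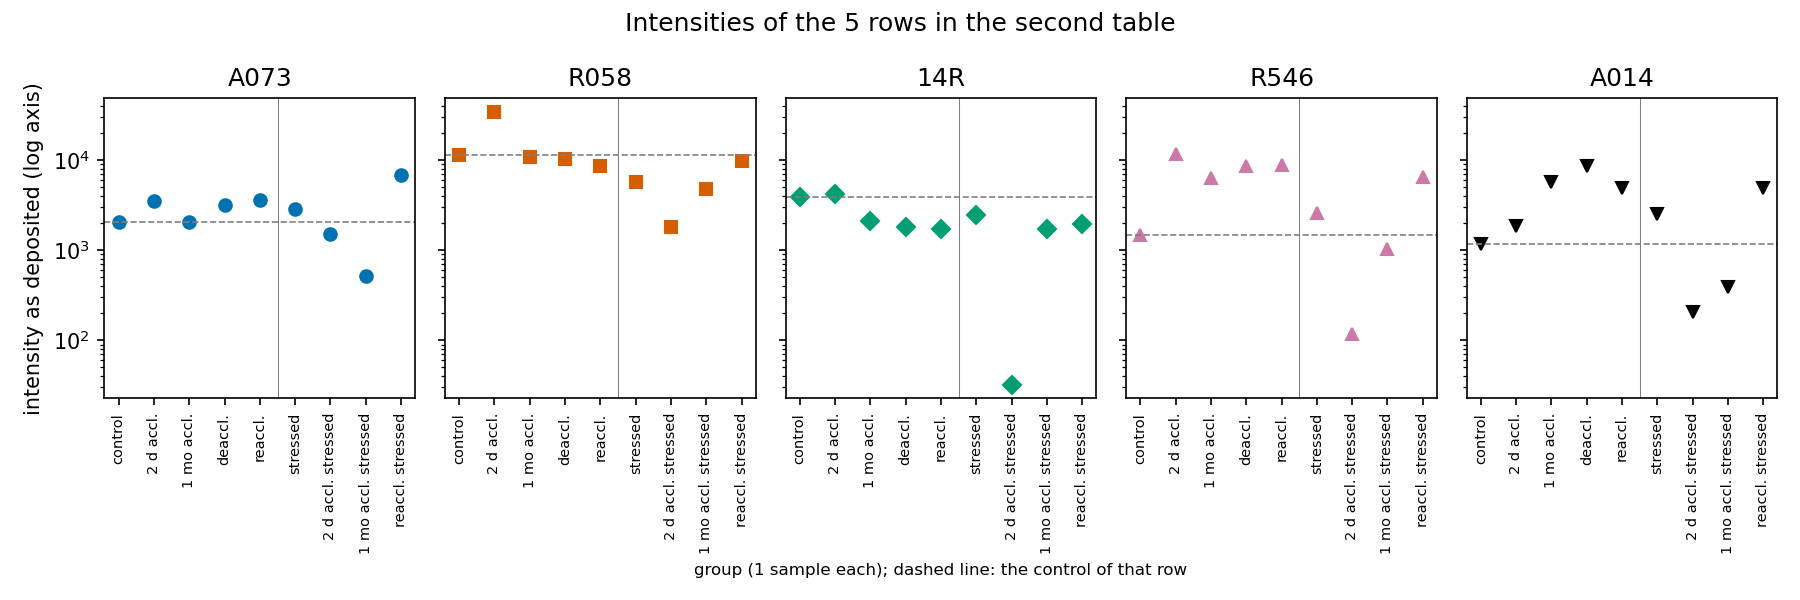
Deposited intensity (vertical log axis) of the 5 rows in the 9 groups (horizontal axis), 1 point per sample and 1 panel per row, with a dashed line at that row's control. R546 and A014 lie above their control in all unstressed treated groups, and 14R lies below it in every group but the 2 d acclimated.

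The rule was also applied to the second table, for which the labels do not say whether a column is 1 pool or a summary of pools, nor how it was scaled. By scaled intensity 10 of the 87 rows met the same rule. R546 and A014 were among these 10, and A073, R058 and 14R were not. A073 was within 2-fold of the control in every group of the rule, with log2 differences of -0.11 after 2 d of acclimation, -0.22 after 1 mo, -0.023 after deacclimation, 0.40 after reacclimation and 0.95 after reacclimation with heat stress. For R058 the scaled difference was 0.71 after 2 d of acclimation and -0.33 after 1 mo, then -0.83 after deacclimation, -0.84 after reacclimation and -1.002 after reacclimation with heat stress. For 14R it ran from -0.79 after 2 d of acclimation to -1.81 in reacclimated, heat-stressed rats. In the 26 cases where one of the 5 rows was listed at 2-fold or more in the log2 ratio table, its scaled intensity was above the control in 14 and at least 2-fold above it in 9, all 9 in R546 and A014. The same shares over all rows were not counted. By the level above the control the 5 rows are therefore not alike in both tables. Centring each group of the log2 ratio table on its own median, which was highest after reacclimation (0.41), left 14R and A014 meeting the rule, so that of the 5 rows A014 was the one that met the rule under both changes.

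**Figure D4:**
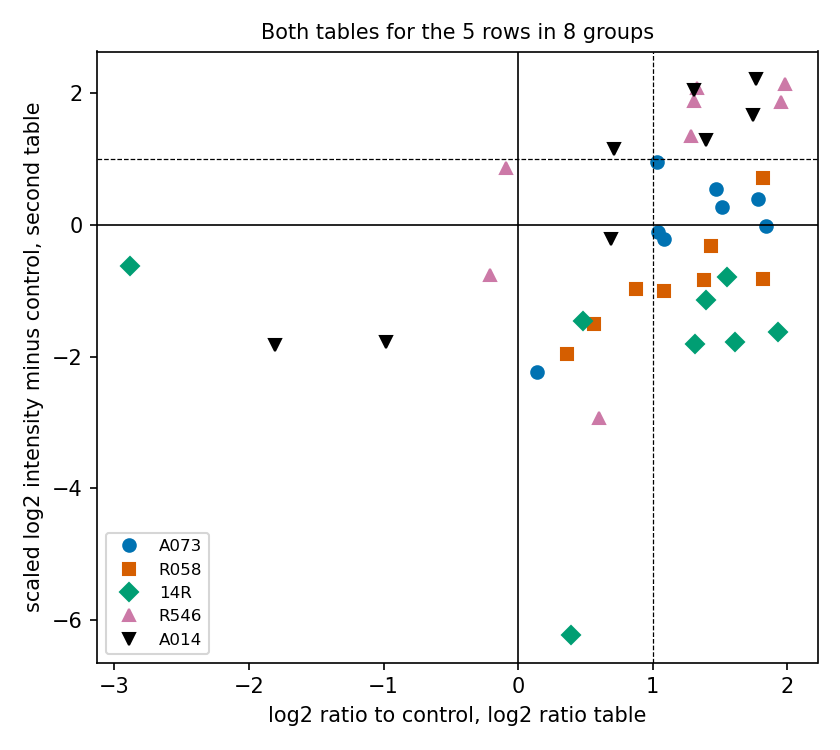
Scaled log2 intensity minus the control (vertical axis) against the log2 ratio to the control (horizontal axis) for the 5 rows in 8 treated groups, 1 point per row and group, with dashed lines at 2-fold. Beyond 2-fold on both axes lie 9 points, all of R546 and A014, while 14R lies below 0 in intensity in every group.

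The profiles of the 5 rows over the 8 treated groups were compared with each other and with the other rows by Pearson's r, as a description without a test. The values share the control of their row and the scaling of each group, and 5 of the 8 groups were used to choose the rows. Between A014 and R546 r was 0.790, between A014 and R058 it was 0.773, and between R546 and R058 it was 0.771. A073 and 14R were least alike (r = 0.0213). Without the heat-stressed group, where 14R lay apart, r over 7 groups was 0.925 between 14R and A014, against 0.289 with it, and 0.537 between 14R and A073. Over the scaled intensities r was 0.817 between A014 and R546, and -0.132 between A073 and 14R.

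Among all rows R105 was most like A014 (r = 0.937), followed by R242 (0.837) and R437 (0.810). R135 was most like R546 (r = 0.960), followed by R158 (0.907) and R220 (0.869). R058 was nearest to R519 (0.892), R041 (0.866) and R040 (0.845). For 14R the nearest were R198 (0.980), S62R (0.930) and R602 (0.896), of which R198 and S62R also lay apart in the heat-stressed group. A073 had no close match, with A014 (0.649), R105 (0.612) and R437 (0.599) nearest. Without the heat-stressed group only 3 of these 15 nearest rows were again among the nearest. R546 then was the row most like A014 and A014 the row most like R546 (r = 0.955).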

How the data were processed

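Left ventricle RNA of 9 groups was measured, 1 sample per group. Per the labels, the authors pooled RNA, labelled it with a radioactive nucleotide and followed a Clontech protocol. The deposited log2 values are, per the labels, log ratios of each treatment's geometric mean to that of the control, after normalization. The deposited intensity values are linear, with their background correction and scaling not given in the sources used here. All columns were matched to samples by name.

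Differences were taken per row between log2 ratios, with the control at 0, and counted at 2-fold (log2 of 1). Intensities above 0 were put on the log2 scale and centred on each group's median over 59 rows. Values under -2.5 were said to lie apart where 0.9 or more separated them from the next row. With 1 sample per group no test was possible. The 5 rows, the lists compared and the alternatives were chosen with earlier results of these data known. Rows named were the 5, those missing the rule by 1 condition, and the 3 most like each of the 5 by Pearson's r. Alternatives were the control as listed, centring, the second table, leaving out the dimmest 25% of rows, and 1.5-fold and 3-fold limits. Counting steps were tested on simulated data. Scripts ran in Python 3.11.15 (pandas 2.3.3, numpy 2.4.6), with figures from matplotlib 3.10.9.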

Additional observations from a re-analysis of the deposited data

Results flagged for a closer look

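In 3 of the 5 rows heat stress went opposite ways in different states of the rats. With 1 sample per group this difference was not tested. The share over all rows was not counted. The unstressed acclimated columns entered the choice of the rows, and high values there favour a fall on heat stress. The control entered every ratio of the rule, and a low control value favours a rise without acclimation. In the log2 ratio table the count of 3 was therefore favoured by the choice. A073 was higher by 1.47 in rats that were not acclimated and stood at -0.95 after 1 mo of acclimation. R058 was higher by 0.88 without acclimation and stood at -1.45 after 2 d of acclimation. A014 was higher by 0.71 without acclimation and stood at -3.11 after 1 mo of acclimation. By scaled intensity the directions held for A073 (0.54 and -2.02) and A014 (1.15 and -3.87), while R058 was below 0 in both states (-0.97 and -2.67).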

How the results depend on the processing

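In the report 5 rows met the rule. It was met by 14 rows with the listed control subtracted (the 5 among them), by 2 after centring (14R and A014), by 10 by scaled intensity and 16 by unscaled intensity (R546 and A014 of the 5 in each), by 19 at 1.5-fold and by 0 at 3-fold. Unscaled intensity and leaving out values that lay apart were added after the data were seen. Rows of the 5 lower on heat stress after 2 d of acclimation, 3 in the report, were 1 after centring, 1 at 3-fold and 5 by unscaled intensity. After 1 mo the count of 2 became 4 by scaled and by unscaled intensity, 5 at 1.5-fold and 1 at 3-fold. After reacclimation the count of 0, which the rule had fixed in the log2 ratio table, became 3 at 1.5-fold. Without acclimation the count of 2 (A073 and 14R) became 4 at 1.5-fold, 1 at 3-fold and 1 without values lying apart. By scaled intensity it was 1 (A014), and by unscaled intensity 2 (R058 and A014). Neither A073 nor 14R was counted in the second table. Rows higher in stressed reacclimated than in stressed 1 mo acclimated rats, 2 in the report, were 4 at 1.5-fold, 1 at 3-fold and 4 by unscaled intensity. Against stressed 2 d acclimated rats the count of 1 became 3 by scaled intensity, 4 at 1.5-fold and 5 by unscaled intensity. The counts for deacclimation against 1 mo acclimation and for reacclimation against deacclimation stayed at 0 under every alternative run. In the log2 ratio table both counts were held down by the rule, which used these columns.

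Of 38 differences of the 5 rows at 2-fold or more, all 38 kept their sign after centring, 26 by scaled and 29 by unscaled intensity, and 29, 20 and 22 of them stayed at 2-fold or more. Those that turned were levels against the control. By scaled intensity they were A073 after 2 d of acclimation (-0.11), 1 mo of acclimation (-0.22) and deacclimation (-0.023). For R058 they were 1 mo of acclimation (-0.33), deacclimation (-0.83), reacclimation (-0.84) and reacclimation with heat stress (-1.002). For 14R they were 2 d (-0.79) and 1 mo of acclimation (-1.14), deacclimation (-1.78), reacclimation (-1.62) and reacclimation with heat stress (-1.81). By unscaled intensity R058 after 1 mo of acclimation (-0.093), deacclimation (-0.15), reacclimation (-0.42) and reacclimation with heat stress (-0.22) turned. So did 14R in the same groups (-0.91, -1.11, -1.199 and -1.02) and A073 after 2 d of acclimation with heat stress (-0.43). The cause was not tested. No paired analysis was possible because each group has 1 sample, and for the same reason no sample could be left out.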
